A study of Papio hamadryas with 72 samples.

Results

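The liver response of control (CON) baboons to a high-fat, high-carbohydrate, high-salt diet (HFCS) was measured in 12 of the 72 arrays of the series, 6 from livers on HFCS and 6 from livers of the same animals on chow. These arrays were taken because their labels give CON offspring and liver, and each HFCS array was set against the chow array that carries the same animal number. The HFCS livers came from 3 females and 3 males after 7 weeks of free access to HFCS and a high fructose drink, and the chow livers came from these same 6 animals at baseline, when they had eaten only chow since weaning. All were juveniles of about 4.5 years, born to mothers fed ad libitum. The study also sampled offspring of mothers on a reduced diet (MUN), as well as omental fat and vastus lateralis muscle. No animals that stayed on chow for these weeks were analysed here, so the diet, the 7 weeks that passed and the first biopsy cannot be told apart. Tissue was taken from the right lobe by needle after an overnight fast under isoflurane, and such a piece holds every cell type of the liver together with blood. Here fewer cells of a type and less RNA per cell cannot be told apart.

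Immediate early genes such as JUN and MYC are transcribed within minutes of a stimulus, without new protein synthesis, and in liver they are known to answer growth factors, cytokines and tissue injury. The GADD45 genes and GDF15 are switched on in cells under stress. Hepatocytes also make cholesterol from acetyl-CoA in a long chain of enzymes, of which SQLE (squalene epoxidase) is a control point, and the transcription factor SREBP2, which turns on their genes, is less active when sterols in the cell are plentiful. HBB, the beta chain of hemoglobin, marks red cells and their precursors.

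Baboon RNA was hybridised to the HumanHT-12 v4 BeadChip, an array made for human RNA, and a gene can appear dim where the sequences of the species differ. Between 11133 and 13453 probes were detected on the HFCS arrays and between 10870 and 13215 on the chow arrays, and the median correlation of each array with the other 11 lay between 0.962 and 0.976. No array stood apart by that measure and no pair held identical values. Signals are given as quantile normalized log2 values, and a change is HFCS minus chow on that scale. The tissue label was looked at through hepatocyte genes, with no fat or muscle array set beside them. Of 15 markers 11 were measured, and their summed linear signal was between 165650 and 175514 on HFCS, against 162467 to 182351 on chow. TF, CYP3A4, ASGR1 and HNF4A were not among the genes measured, and neither was any platelet or bile duct marker looked for.

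Of 7956 genes tested, 6 were differentially expressed (DEG), with an adjusted p under 0.05 (Benjamini-Hochberg, limma) and a fold change of at least 1.2, which is 0.0754% of the genes. All 6 were down-regulated on HFCS, namely MYC, GADD45B, JUN, GADD45A, GDF15 and CTH, and each was lower on HFCS in 6 of 6 animals. None was up-regulated. Without the pairing by animal there were 0 DEG in limma (173 genes higher and 126 lower at an unadjusted p under 0.05). At an unadjusted p under 0.05 there were 688 genes (8.65%), with 401 genes higher on HFCS (5.04%) and 287 lower (3.61%), so the number of genes did not lean towards lower values as the DEG did. The median change over all genes was 0.0032.

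MYC, a transcription factor of cell growth, was the DEG with the largest fall. Its lowest, median and highest levels were 7.13, 7.84 and 8.87 on HFCS, against 8.31, 9.47 and 10.53 on chow. The ranges overlapped between animals, but within each animal MYC was lower on HFCS, with changes between -1.82 and -1.07. The order of the animals was the same on both diets apart from animals 1 and 3, and males had the 3 highest levels on either diet. MYC fell by 1.52 on average (SE 0.10, 95% interval -1.74 to -1.31, adjusted p = 0.000204), which is 2.87-fold lower on HFCS. A further MYC probe gave -1.56. With the animal as a random block MYC just missed the threshold (adjusted p = 0.0568).

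JUN, a subunit of the AP-1 transcription factor, separated the diets completely. Its lowest, median and highest levels were 8.36, 8.57 and 9.04 on HFCS, against 9.30, 9.64 and 10.19 on chow, so that the highest HFCS array lay below the lowest chow array. Only 5 genes in all (0.0628%) were lower on HFCS without overlap, the others being IL1RN, STS, CD2BP2 and RMC1 (the last 3 named after their values were seen), and 8 genes (0.101%) were higher without overlap. JUN fell by 1.03 (SE 0.10, adjusted p = 0.00282), a 2.04-fold lower level. A two-sided exact sign flip test over the 6 animals gave p = 0.03125, the smallest that 6 pairs allow.

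GADD45B and GADD45A, which bind kinases of the p38 and JNK pathways and can halt the cell cycle, were both lower on HFCS. GADD45B had 8.30, 8.97 and 9.60 as its lowest, median and highest level on HFCS, against 9.46, 10.23 and 10.65 on chow. Its change was -1.21 (SE 0.10, adjusted p = 0.00123), a 2.32-fold lower level. GADD45A had 8.03, 8.70 and 9.19 on HFCS, against 8.79, 9.94 and 10.26 on chow, and its change was -1.01 (SE 0.13, adjusted p = 0.0276). In both genes the highest HFCS arrays overlapped the lowest chow arrays. In GADD45A the chow levels of animals 1 and 3, both females, were well below those of the other animals. The smallest change, -0.28, was in animal 1, while in GADD45B that animal had -1.16. GADD45A did not pass when any of animals 2 to 6 was left out (adjusted p up to 0.171).

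GDF15, a stress-induced cytokine that reduces food intake through a receptor in the hindbrain, had levels of 6.73, 6.87 and 7.62 on HFCS, against 7.36, 8.27 and 9.01 on chow. It was above background on 2 of 6 HFCS arrays and on 6 of 6 chow arrays, so the levels of most HFCS arrays lie near the floor of the array. It thus entered the test through the chow arrays, where it was high. With no detection filter it did not pass (adjusted p = 0.110), and with detection required on all 12 arrays it was not tested. In the filtered set GDF15 fell by 1.33 (SE 0.19, adjusted p = 0.0440). Animals 4 and 5, both males, had the largest changes (-2.01 and -2.03), and animal 6, whose HFCS level was the highest and lay above the lowest chow level, had -0.69. Without any one of animals 2 to 5 GDF15 did not pass (adjusted p up to 0.201). With a normexp background correction its change was -2.37.

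CTH, which cleaves cystathionine to make cysteine, had levels of 6.85, 7.34 and 7.73 on HFCS, against 7.35, 8.04 and 8.12 on chow. The groups overlapped, yet the change was of like size in all animals, between -0.71 and -0.31. CTH fell by 0.55 (SE 0.07, adjusted p = 0.0276), the smallest fold of the 6 DEG at 1.46, and it passed without animal 3 but not without any other (adjusted p up to 0.171). CTH lay near background on some HFCS arrays, which limits the size of change that could be read. With detection required on all 12 arrays it was not among the DEG. With a normexp background correction its change was -1.03. It was the only DEG that encodes a metabolic enzyme.

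**Figure D1:**
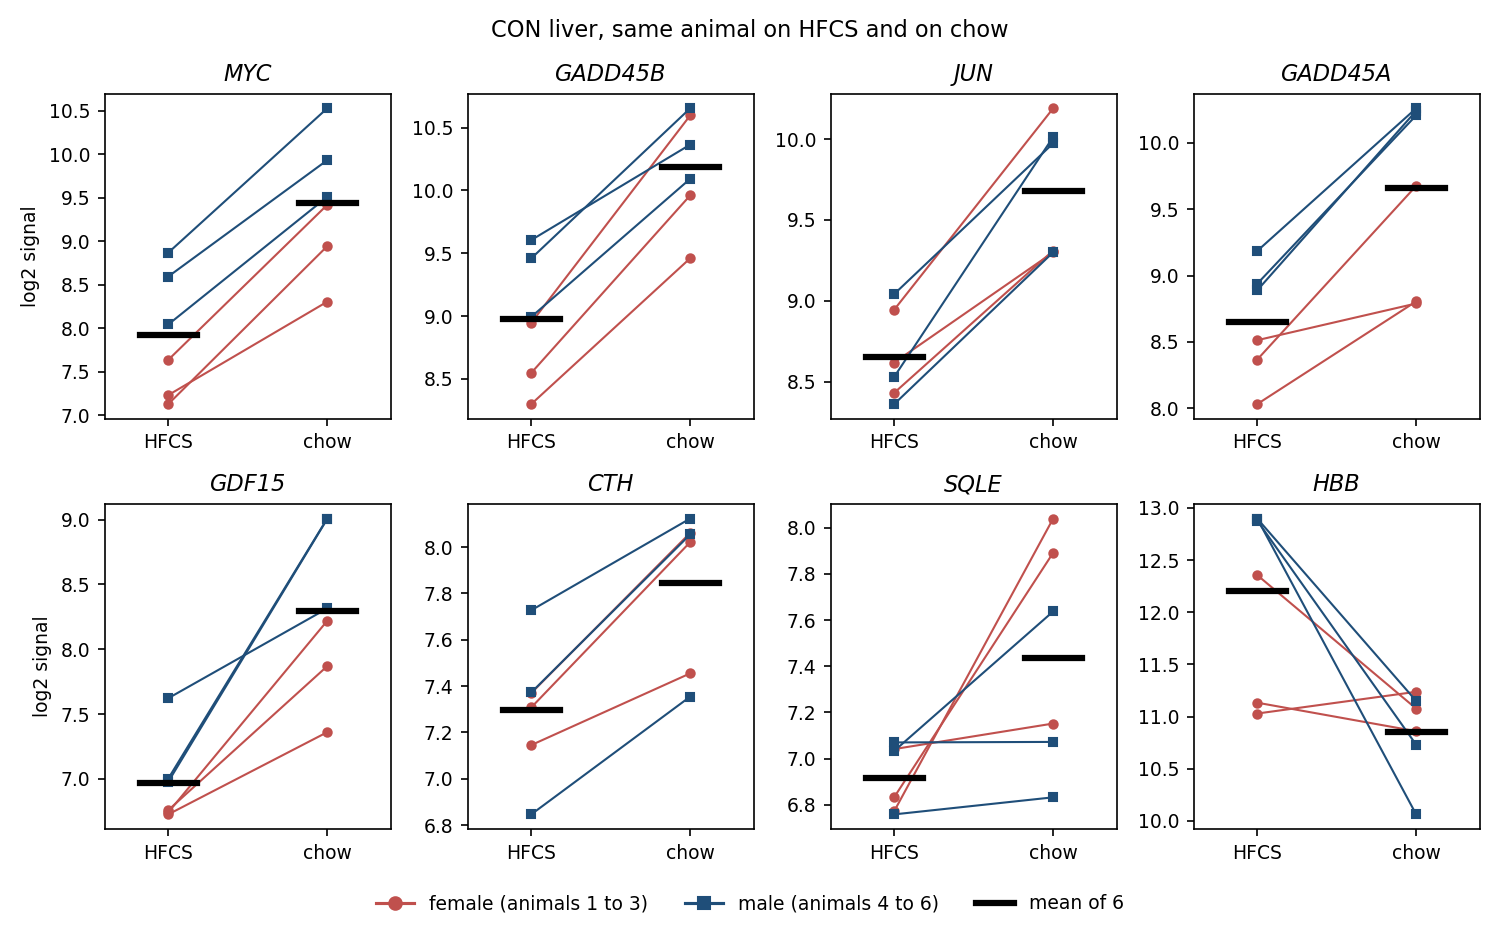
Log2 signal (vertical axis) of the 6 DEG and of SQLE and HBB on HFCS (left) and on chow (right) in CON liver; thin lines join the 2 arrays of an animal, red circles are females, blue squares are males, and black bars are means of 6. For the 6 DEG every line is lower on HFCS, SQLE differs by more than 1 in animals 1 and 2 only, and HBB is higher on HFCS in all 3 males.

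MYC and JUN belong to the immediate early genes. Of 28 such genes 20 were measured, and 18 of them had a lower mean on HFCS, with a median change of -0.31, against 3854 of all genes with a lower mean (48.4%). The 2 DEG among them were MYC and JUN, and 8 members were lower at an unadjusted p under 0.05, against 3.61% of all genes. ZFP36 (tristetraprolin), which speeds the decay of cytokine mRNAs, averaged -1.33 (adjusted p = 0.152). IER3 averaged -0.94 (adjusted p = 0.250), JUNB -0.73 (adjusted p = 0.246) and EGR1 -0.57 (adjusted p = 0.562). FOS, the usual partner of JUN in AP-1, averaged -0.72 (adjusted p = 0.685) with values that ranged widely between animals, from -2.26 in animal 6 to 1.68 in animal 1. KLF6 and JUND averaged -0.44 and -0.32, and KLF10, SGK1 and NR4A2 lay between -0.33 and -0.25. Several of these means rested on 1 animal: without animal 2 JUND was at -0.17 and SGK1 at -0.10, without animal 3 KLF10 was at -0.16, without animal 4 EGR1 was at -0.29, without animal 5 NR4A2 was at -0.04, and without animal 6 FOS was at -0.41. With a normexp background correction JUNB was at -1.32 (adjusted p = 0.0731), IER3 at -1.51, FOS at -1.11 and KLF10 at -0.55. The remaining 8 members, FOSB, CCNL1, NR4A1, FOSL1, EGR3, KLF2, IER5 and MCL1, had means between -0.14 and 0.06.

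Genes of stress, MAP kinase phosphatases and growth arrest were also lower for the most part. Of 29 listed genes (ZFP36 stands in both lists) 22 were measured, 19 with a lower mean on HFCS and a median change of -0.35. GADD45A and GADD45B were the 2 DEG, 11 members were lower at an unadjusted p under 0.05, and 8 were lower in all 6 animals, against 2.30% of all genes. RASD1, a Ras-like GTPase induced by dexamethasone, had the largest mean change of any gene. Its lowest, median and highest levels were 7.11, 7.87 and 8.03 on HFCS, against 7.52, 9.25 and 10.79 on chow. Levels on HFCS lay close together while those on chow spanned over 3 log2 units. The mean change of -1.70 (SE 0.32) did not pass the test (adjusted p = 0.164), as it ran from -3.23 in animal 5 to -0.41 in animal 1. CEBPB, a transcription factor of the acute phase response, averaged -0.58 (adjusted p = 0.213), TRIB1, a pseudokinase that directs the breakdown of C/EBP proteins, averaged -0.50 (adjusted p = 0.308), and both were lower in 6 of 6 animals. DUSP5, an ERK phosphatase chosen after its values were seen, averaged -1.13 (adjusted p = 0.341).

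BHLHE40, a transcriptional repressor of the circadian clock, had levels of 8.38, 8.70 and 9.70 on HFCS, against 9.42, 10.22 and 10.60 on chow. The change averaged -1.21 (adjusted p = 0.164). IL1RN, the natural antagonist of the interleukin 1 receptor, had 7.34, 7.39 and 7.47 on HFCS, against 7.65, 8.21 and 9.79 on chow. These groups did not overlap, but the change differed so much between animals, from -2.39 to -0.27, that it did not pass the test (mean -1.17, adjusted p = 0.250). Of 12 genes of the NF-kB and cytokine response 10 had a lower mean, with a median change of only -0.08. SLC25A25, the mitochondrial carrier of ATP-magnesium, averaged -1.12 (adjusted p = 0.431).

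**Figure D2:**
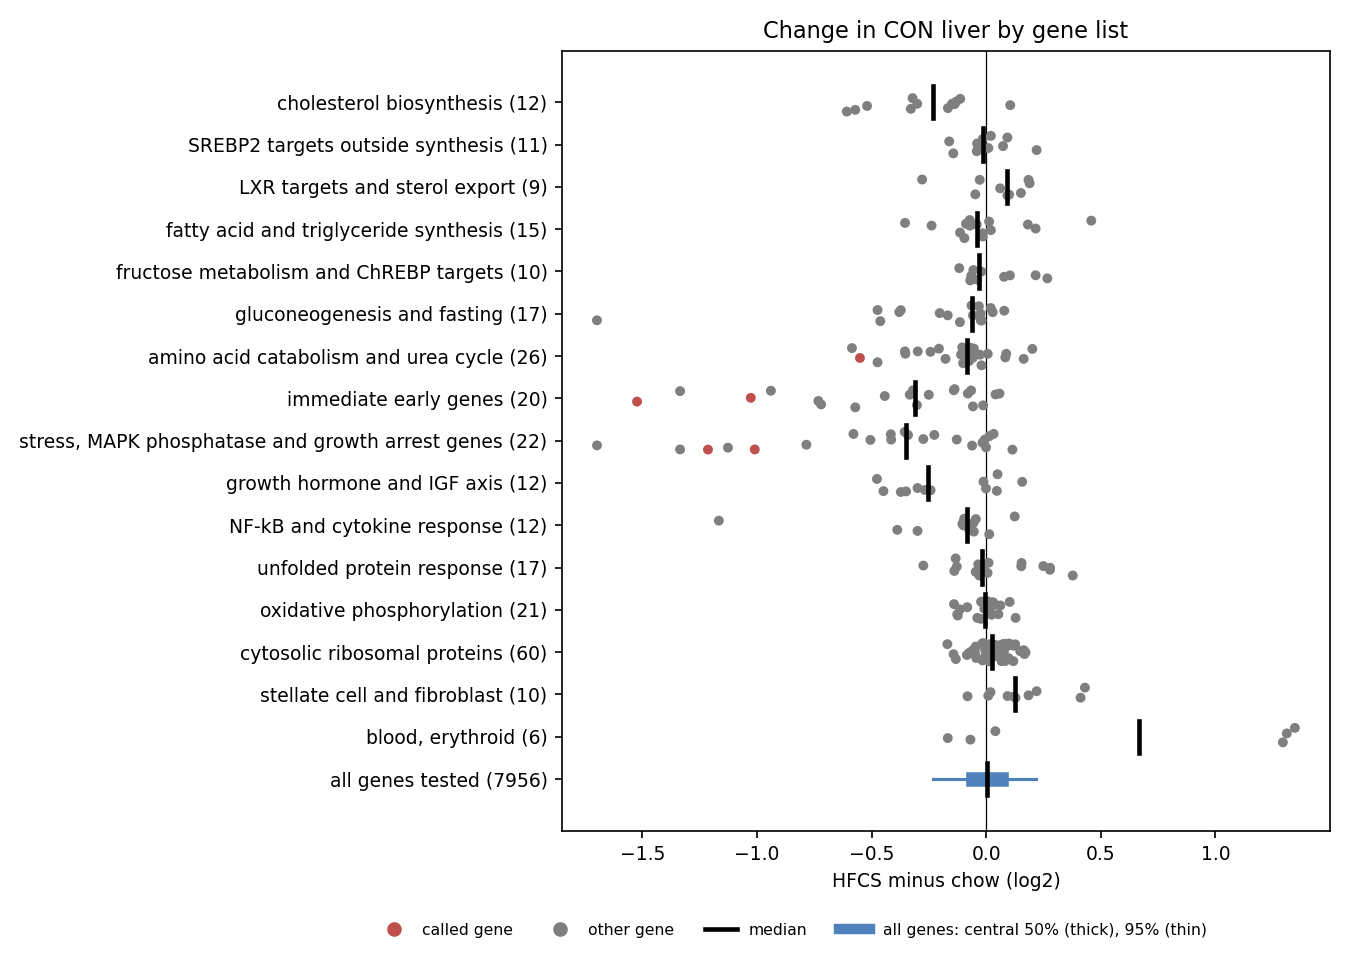
Change of each measured gene, HFCS minus chow in log2 units (horizontal axis), by gene list (rows, with the number measured); red points are DEG, grey points are other genes, black ticks are medians, and the bottom row gives the central 50% and 95% of all 7956 genes. The medians of immediate early genes (-0.31), stress genes (-0.35), growth hormone genes (-0.25) and cholesterol biosynthesis (-0.23) lie left of that of all genes.

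Animal 1 stood apart in several of these genes. Its change was 0.08 in BHLHE40, 0.19 in ZFP36, 0.11 in IER3, 0.68 in SLC25A25 and 1.68 in FOS, whereas animals 2, 3, 4 and 6 had negative changes in all of these. In ZFP36 the chow level of animal 1 was 9.70, far below those of the other chow arrays (10.96 to 11.62), while its HFCS level of 9.89 was close to the others (9.49 to 9.75). Without animal 1 there were 7 DEG, with ZFP36 (-1.64, adjusted p = 8.3e-05) and BHLHE40 (-1.47, adjusted p = 0.00289) joining and CTH lost. The median change over the immediate early genes was 0.00 in animal 1 and between -0.37 and -0.17 in each of the other animals. Animals 2 and 5 had the largest changes in RASD1 (-2.80 and -3.23), IL1RN (-2.16 and -2.39) and SLC25A25 (-1.50 and -2.89), and these are a female and a male.

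The spread of these genes between animals was also described on each diet. The standard deviation over the 6 arrays was lower on HFCS in 18 of 20 immediate early genes, in 19 of 22 stress genes and in 12 of 12 genes of cholesterol biosynthesis, against 55.4% of all genes. The median standard deviation of the immediate early genes was 0.19 on HFCS, against 0.42 on chow, and over all genes it was 0.15 on HFCS, against 0.16 on chow. No test was made of this difference. Most genes of these lists also had lower means on HFCS, while all genes did not lean that way. SQLE lay near background on some HFCS arrays, which limits the spread that could be read there. JUNB, KLF10 and DDIT3 were dim as well (mean levels of 7.56, 7.11 and 7.65), while JUN and ZFP36 were brighter (9.17 and 10.36). How far low levels narrowed the spread on HFCS was not tested.

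**Figure D3:**
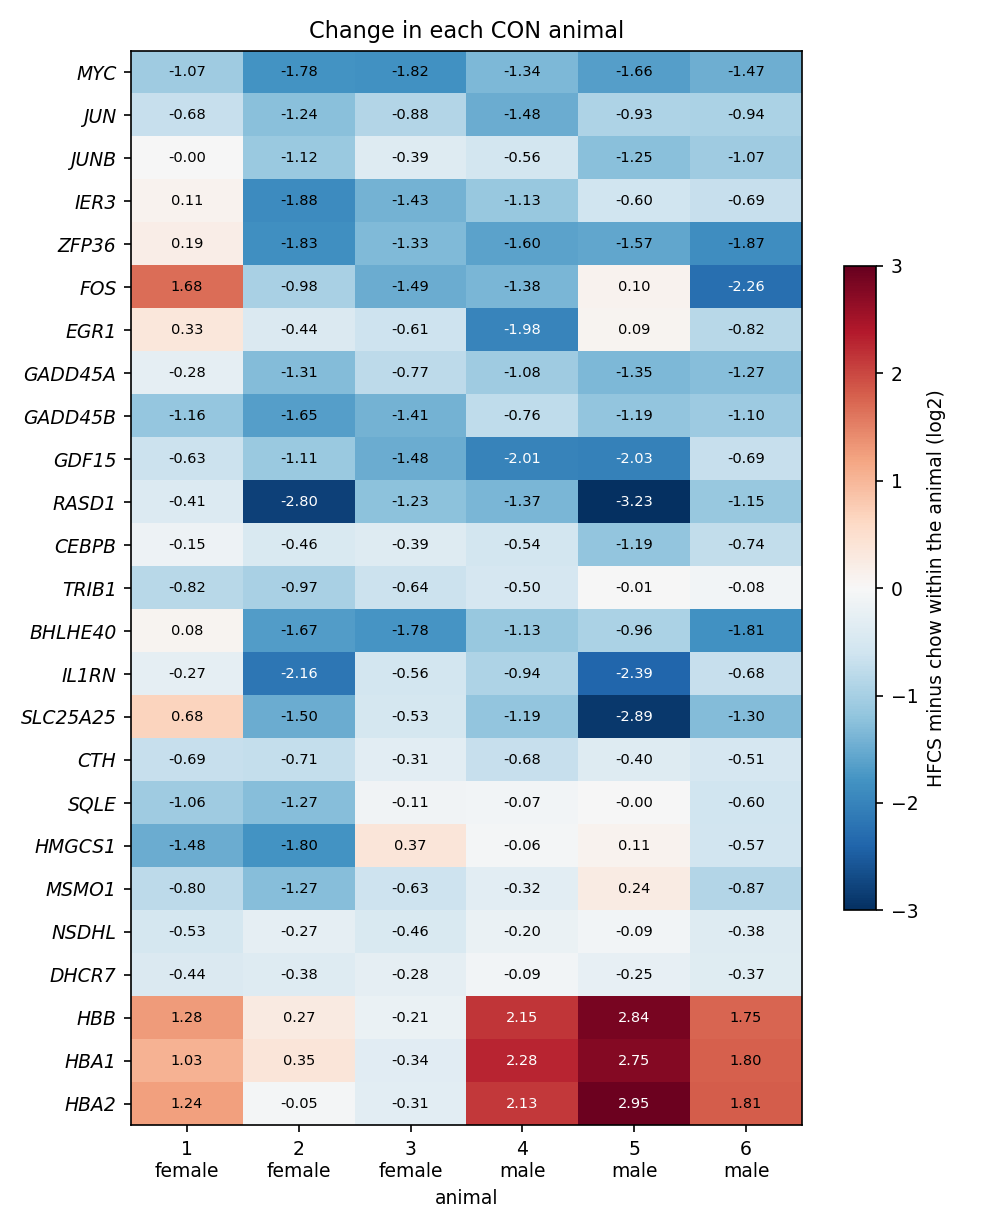
Change of 25 genes in each CON animal, HFCS minus chow in log2 units (printed in each cell; blue is lower and red is higher on HFCS), with genes in rows and the 6 animals in columns. MYC, JUN, GADD45B and CTH are lower on HFCS in every column, animal 1 has values near or above 0 for JUNB, IER3, ZFP36, FOS and BHLHE40, and the globins are highest in the 3 males.

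Cholesterol biosynthesis had no DEG, and 11 of its 12 measured genes had a lower mean on HFCS, with a median change of -0.23. The median over the 12 genes was between -0.52 and -0.12 in animals 1, 2, 3, 4 and 6, with 8 to 12 genes lower, but 0.18 in animal 5, in which only 4 genes were lower. At an unadjusted p under 0.05 5 members were lower and none was higher, against 3.61% and 5.04% of all genes. SQLE had levels of 6.76, 6.93 and 7.07 on HFCS, against 6.83, 7.39 and 8.04 on chow. It was above background on 3 of 6 HFCS arrays and 5 of 6 chow arrays, so it was dim throughout. The change of SQLE was -1.06 and -1.27 in animals 1 and 2, -0.60 in animal 6, and between -0.11 and 0.00 in animals 3, 4 and 5, whose chow levels were already low. Its mean was -0.52 (SE 0.17, 95% interval -0.89 to -0.15, adjusted p = 0.443), and another probe gave -0.22. With a normexp background correction the mean was -1.06, which did not pass either. The exact sign flip test gave p = 0.03125, since every animal was lower, some of them barely. Any gene lower in all 6 animals gets this unadjusted value, and 2.30% of all genes were so.

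The steps before and after SQLE differed in how even the change was. HMGCS1, which makes HMG-CoA at the start of the chain, had levels of 9.05, 9.26 and 9.87 on HFCS, against 8.94, 9.85 and 11.10 on chow, and averaged -0.57 (adjusted p = 0.589). Its pattern over animals was the one most like that of SQLE among 972 genes compared (Pearson r = 0.98 over 6 animals, a description), with -1.48 and -1.80 in animals 1 and 2 and 0.37 in animal 3. The next in likeness were ATF6, FARSB, AMY2A, SIK3 and SERPINE2, with r between 0.88 and 0.93. By the same measure, the 6 genes most like JUN were PTGES3L-AARSD1, SEC16A, IMPDH2, HACD2, FAM162A and ABHD17B (r between 0.85 and 0.88), whose own mean changes were small.

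DHCR7 and NSDHL had smaller and more even changes. DHCR7, which carries out the last reduction to cholesterol, had levels of 7.35, 7.47 and 7.57 on HFCS, against 7.56, 7.85 and 7.91 on chow, and averaged -0.30 (SE 0.06, adjusted p = 0.246), or -0.54 (adjusted p = 0.161) with a normexp background correction. NSDHL, one of the enzymes that removes the C4 methyl groups, averaged -0.32 (SE 0.07, adjusted p = 0.250). Both were lower in 6 of 6 animals. For DHCR7 a single HFCS array overlapped the lowest chow array. MSMO1, which oxidises the same methyl groups, averaged -0.61 (adjusted p = 0.346), but its 3 probes disagreed, the others giving 0.14 and -0.36. EBP, a sterol isomerase, averaged -0.33 (adjusted p = 0.533) with 0.52 in animal 5, and it was a DEG when that animal was left out (-0.50, adjusted p = 0.0336). SC5D, FDPS, ACAT2, TM7SF2 and LSS had means between -0.17 and -0.11, and HSD17B7 had 0.11.

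**Figure D4:**
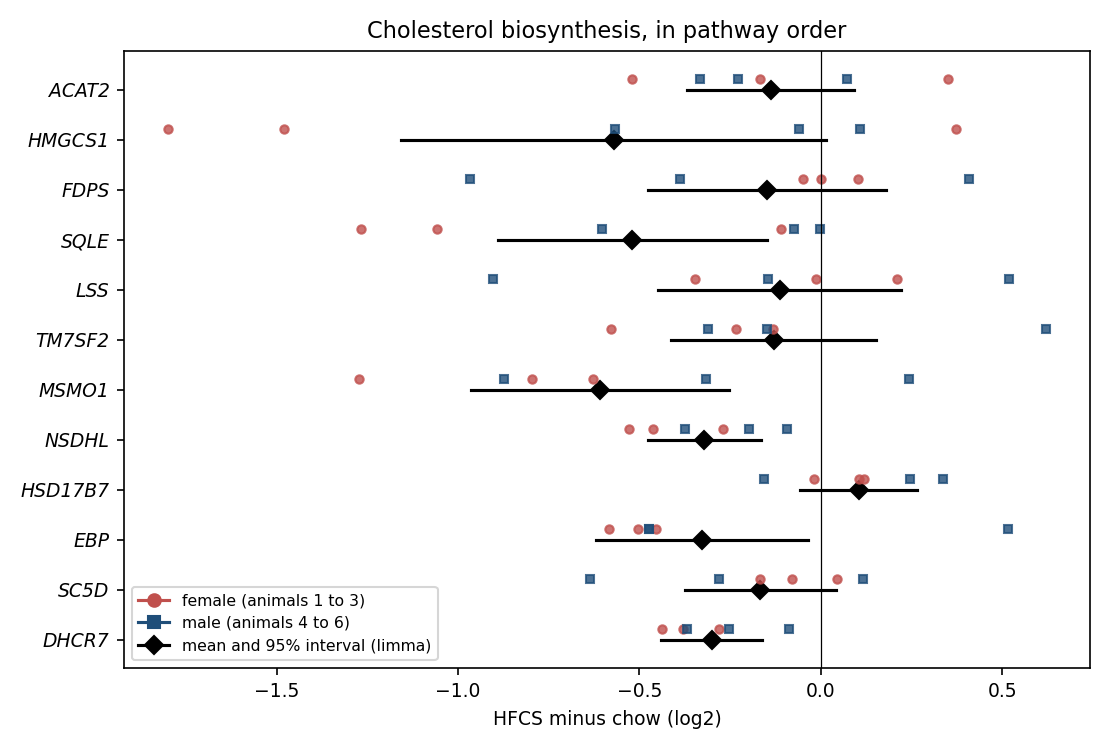
Change of the 12 measured genes of cholesterol biosynthesis in pathway order from top to bottom, HFCS minus chow in log2 units (horizontal axis); black diamonds with bars are means with 95% intervals from limma, red circles are females and blue squares are males. The intervals of SQLE, MSMO1, NSDHL, EBP and DHCR7 lie below 0, and animals scatter most in HMGCS1.

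Targets of SREBP2 outside this chain and genes of sterol export held no DEG. Of 11 measured targets 6 had a lower mean, with a median change of -0.01, and TMEM97, a sterol-regulated membrane protein, averaged 0.22 (adjusted p = 0.570), while another probe for it gave -0.09. Of 9 LXR targets and sterol exporters 6 had a higher mean, with a median of 0.09. NR1H3, which encodes the sterol sensor LXR alpha, averaged 0.19 (adjusted p = 0.533), and LPCAT3, a phospholipid remodelling enzyme, averaged 0.18 (adjusted p = 0.541). Of 13 genes of bile acid synthesis and transport 10 had a lower mean, with a median of -0.10.

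Genes of lipid synthesis and of sugar handling held no DEG. Of 15 genes of fatty acid and triglyceride synthesis 10 had a lower mean, with a median of -0.04. GPAM, which starts triglyceride synthesis, averaged 0.46 (adjusted p = 0.541), with changes over 1 in animals 2 and 5 and -0.25 to 0.40 in the others. MLXIPL, which encodes the sugar-responsive factor ChREBP, averaged 0.22 (adjusted p = 0.567). Of 10 genes of fructose metabolism and ChREBP targets 6 had a lower mean, with a median of -0.03. KHK, the first enzyme of fructose breakdown, averaged 0.10 (95% interval -0.09 to 0.30, adjusted p = 0.806), and TXNIP, a sugar-induced arrestin, averaged 0.27 (95% interval -0.30 to 0.83). For glycogen, PPP1R3G and PPP1R3C, both of which target protein phosphatase 1 to glycogen, averaged -0.58 and 0.45 (adjusted p = 0.511 and 0.541).

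Genes of amino acid breakdown and fasting metabolism had 1 DEG. Of 26 genes of amino acid catabolism and the urea cycle 21 had a lower mean on HFCS, with a median of -0.08, and CTH was the only DEG. TAT (tyrosine aminotransferase) averaged -0.47 (adjusted p = 0.443), AASS of lysine breakdown -0.59 (adjusted p = 0.533) and OAT (ornithine aminotransferase) -0.30 (adjusted p = 0.541). Of 17 genes of gluconeogenesis and fasting 14 had a lower mean, with a median of -0.06. FOXO1, a transcription factor that insulin restrains, averaged -0.38 (adjusted p = 0.423). In the growth hormone and IGF axis 9 of 12 genes had a lower mean, with a median of -0.25. GHR, the growth hormone receptor, had levels of 7.86, 8.69 and 10.05 on HFCS, against 8.19, 9.43 and 10.23 on chow, and averaged -0.45 (SE 0.09, adjusted p = 0.250). It was lower in 6 of 6 animals, by 0.17 to 0.92. IGFBP2 and IGFBP3, carriers of IGF1, averaged -0.35 and -0.27 (adjusted p = 0.470 and 0.443), and IGF1 itself averaged 0.05.

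Secreted liver proteins and housekeeping machinery held no DEG. SAA1, an acute phase protein, averaged -0.81 (adjusted p = 0.428) and CRP -0.18 (adjusted p = 0.463), and the median of 21 acute phase genes was -0.03. F2 (prothrombin) averaged -0.40 (adjusted p = 0.250) and was lower in 6 of 6 animals, and the median of 28 genes of complement and coagulation was 0.01. DNAJB11 and CANX, folding helpers of the endoplasmic reticulum, were higher in 6 of 6 animals, by 0.38 and 0.28 on average (adjusted p = 0.221 and 0.250), against 2.60% of all genes (another CANX probe gave 0.02), while DDIT3, a factor of the stress branch of the same response, averaged -0.27 (adjusted p = 0.493). The median was -0.02 over 17 genes of the unfolded protein response, 0.03 over 60 cytosolic ribosomal proteins and -0.01 over 21 genes of oxidative phosphorylation. Among genes chosen after their values were seen, STS (steroid sulfatase) averaged -0.52 (adjusted p = 0.105), the transcription factor ETS2 -0.75 (adjusted p = 0.155) and COL18A1 (collagen XVIII) 0.43 (adjusted p = 0.151), each with the same sign in 6 of 6 animals.

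Hemoglobin transcripts had the highest mean changes of all genes, and none passed the test. HBB had levels of 11.03, 12.62 and 12.90 on HFCS, against 10.06, 10.97 and 11.24 on chow, with some overlap. The 3 males were higher on HFCS by 1.75 to 2.84, animal 1 by 1.28 and animal 2 by 0.27, and animal 3 had -0.21. HBB averaged 1.35 (SE 0.34, adjusted p = 0.333, exact sign flip p = 0.0625), with 1.31 for HBA1 and 1.29 for HBA2, the alpha chains, whose probes may share signal. The red cell genes ALAS2 and AHSP, expressed in precursors, had -0.17 and -0.07. Both were dim (mean levels of 7.49 and 7.08), which limits the change that could be read. In males alone HBB, HBA1 and HBA2 were up-regulated (HBB 2.24, adjusted p = 0.0147). The summed signal of the 6 erythroid markers measured was 5028 to 18144 on HFCS, against 3032 to 6472 on chow. The part of blood in the other results was not tested. In animals 2 and 3, where HBB differed little, MYC had changes of -1.78 and -1.82, GADD45B of -1.65 and -1.41 and JUN of -1.24 and -0.88. For MYC and GADD45B these 2 animals had the largest changes of the 6. In the 3 males, where HBB rose by 1.75 to 2.84, GDF15, GADD45A and JUN had mean changes of -1.58, -1.23 and -1.12. In females these were smaller (-1.07, -0.79 and -0.94). For MYC, GADD45B and CTH the mean change was larger in females.

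Other cell type markers showed no DEG. Of 10 stellate cell and fibroblast markers 9 had a higher mean, with a median of 0.12. COL1A1 and COL1A2, the chains of collagen I, averaged 0.41 and 0.43 (adjusted p = 0.470 and 0.443; another COL1A2 probe gave 0.86), and ACTA2, smooth muscle actin, averaged 0.73 (adjusted p = 0.490). For collagen I, animals 3 to 6 had changes of 0.31 to 0.98, while animals 1 and 2 had -0.26 to 0.04. For ACTA2 the largest change was 2.04 in animal 6. The summed signal of the stellate markers was 12321 to 18374 on HFCS, against 12152 to 22314 on chow. Macrophage markers summed to 15379 to 18643 on HFCS, against 13250 to 17220 on chow, with 5 lower and 6 higher means. Neutrophil markers summed to 842 to 1750 on HFCS, against 812 to 1995 on chow.

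Whether males and females responded differently was asked with the interaction of diet and sex. No gene passed (0 DEG in limma, 372 at an unadjusted p under 0.05, which is 4.68%). The male minus female difference in change was 0.07 for MYC, 0.39 for GADD45B and -0.18 for JUN. For SQLE the mean change was -0.23 in males and -0.81 in females, a difference of 0.59 (SE 0.29, adjusted p = 1.00). The difference for HBB was 1.80 (SE 0.38, adjusted p = 0.769).

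The same change was set against that of MUN livers, in a fit over the 10 animals of both groups whose liver arrays were sound. The remaining 2 MUN animals had 3 arrays with a median correlation under 0.9 with the other liver arrays. Of 8491 genes 1 differed (0.0118%). MYC had a change of -1.50 in CON livers and of 0.38 in 4 MUN livers (SD 0.41, range -0.16 to 0.77), a difference of -1.87 (SE 0.19, adjusted p = 0.00252). With all 24 liver arrays the difference was -2.39 and did not pass (SE 0.52, adjusted p = 0.810). For GADD45B the difference was -1.40 (adjusted p = 0.312) and for GADD45A -0.89 (adjusted p = 0.421), neither passing. JUN, GDF15 and GADD45A had lower means on HFCS in MUN livers as well, though by less in these 4 animals. JUN averaged -0.29 there, lower in 3 of 4 animals (difference -0.72, adjusted p = 0.802), and with all 24 arrays it averaged -0.93 in CON livers and -0.87 in MUN livers, lower in 5 of 6 MUN animals (difference -0.07, adjusted p = 0.964). GDF15 averaged -0.18 and GADD45A -0.11 in the 4 MUN livers, each lower in 4 of 4. With all 24 arrays GDF15 was lower in 6 of 6 MUN animals and averaged -0.26, and GADD45A was lower in 5 of 6 with a mean of 0.19. For HMGCS1 the mean change was -0.57 in CON livers and 0.73 in MUN livers, where all 4 animals were higher on HFCS, and for SQLE it was -0.50 in CON livers and 0.34 in MUN livers, neither difference passing (adjusted p = 0.630 and 0.711). With all 24 arrays HMGCS1 averaged -0.04 and SQLE 0.16 in MUN livers.

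Fat and muscle arrays of the same CON animals were compared in like manner, with the CON liver arrays shared by all these comparisons. Liver minus fat differences were called in 2 of 6568 genes (0.0305%). RASD1 had a change of -1.70 in liver and 0.63 in fat, a difference of -2.33 (SE 0.24, adjusted p = 0.00236), and GADD45B had -1.21 in liver and 0.14 in fat, a difference of -1.36 (SE 0.14, adjusted p = 0.00236). Against muscle, in the 5 animals with sound muscle arrays, 2 of 5632 genes were called (0.0355%). These were MYC, with -1.49 in liver and 0.19 in muscle (difference -1.69, adjusted p = 0.00541), and GADD45B, with -1.22 in liver and -0.06 in muscle (difference -1.15, adjusted p = 0.0468). JUN had 0.20 in fat with a wide spread (SD 1.78), and its difference did not pass in either tissue.

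**Figure D5:**
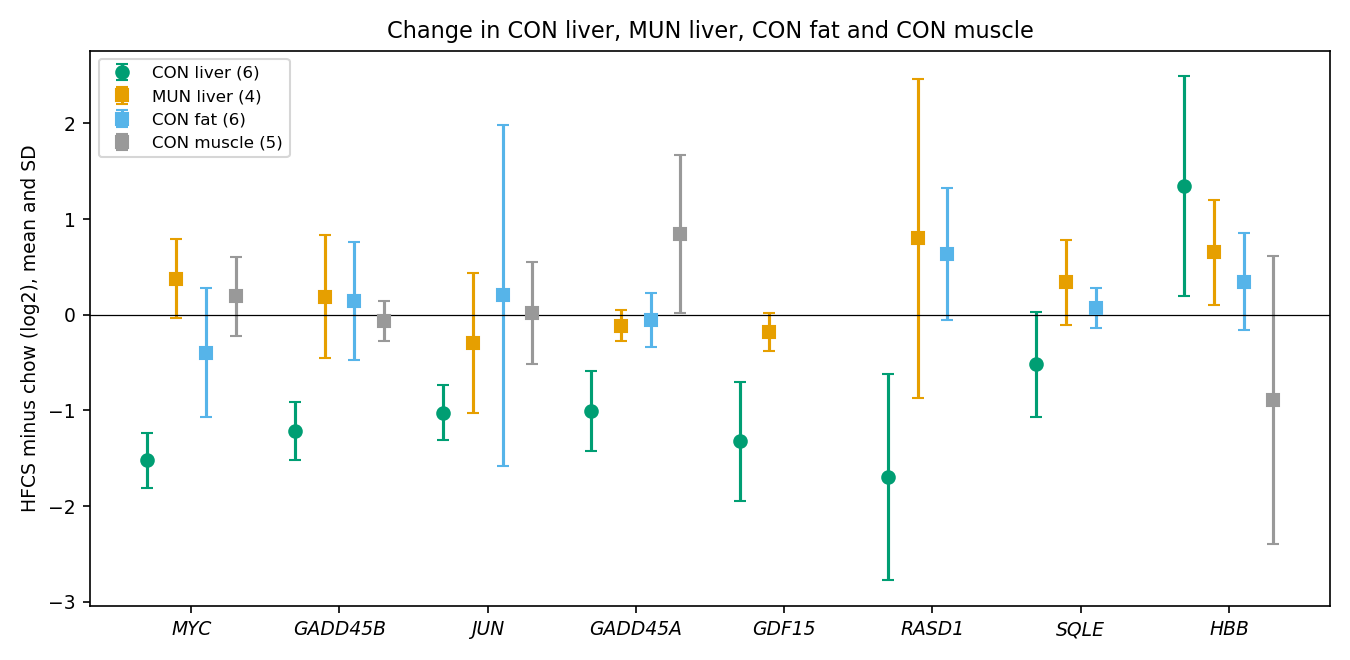
Mean change, HFCS minus chow in log2 units (vertical axis), of 8 genes (horizontal axis) in CON liver (green, 6 animals), MUN liver (orange, 4 animals), CON fat (light blue, 6 animals) and CON muscle (grey, 5 animals); bars are SD over animals, and a gene not measured in a tissue has no point there. MYC is at -1.52 in CON liver and at 0.38 in MUN liver, and GADD45B lies well below 0 in CON liver alone.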

How the data were processed

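The authors exported probe intensity values and detection scores from GenomeStudio, and both were deposited without normalization; the score rises to 1 for probes above negative controls, although its columns are headed as p-values. The deposited value table holds the authors' quantile normalized intensity values and served as an alternative. Analysis in the study used Partek (versions are not given in the sources used here). Here probes with a score above 0.95 on at least 6 of the 12 arrays were kept (12185), put on the log2 scale, quantile normalized over these arrays and fitted in limma 3.58.1 (R 4.3.3) with the animal as a fixed block. The brightest of the kept probes with a single symbol stood for its gene. The animal number in the labels pairs the arrays, as the study sampled the same animals at both times. Deviations of same-animal arrays correlated at 0.330 to 0.617. The study's methods name no pairing, so a fit without the block was an alternative. Markers, gene lists and tests were chosen with earlier results of these data known, and lists were given by counts and medians with no test. Genes named are SQLE, JUN and HBB, all DEG, all measured members of cholesterol biosynthesis and immediate early genes, the members of other lists with the smallest p, and genes called in another comparison; those chosen after their values were seen are said to be so. On simulated data with this design and normal noise, 100 genes were changed by 1 log2 unit and 100 by 0.5. Of these, 96% and 84% were called, with 6 false calls among 7956 genes. So many changed genes make the adjusted p more lenient than in the real data, where 6 genes passed. These shares therefore do not tell how many real changes of such size were missed. The number of arrays limits the precision.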

Additional observations from a re-analysis of the deposited data

Results flagged for a closer look

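The change on HFCS differed from that elsewhere, in a test of the difference itself, for MYC in CON against MUN livers (-1.87) and in CON liver against CON muscle (-1.69), for GADD45B in CON liver against fat (-1.36) and against muscle (-1.15), and for RASD1 in CON liver against fat (-2.33). These comparisons share the CON liver arrays.

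In 17 of 270 groups of 6 arrays looked at, 1 array lay far from the other 5, where chance gives about 1 in 20 groups. On HFCS these were GDF15 at 7.62 in animal 6, OAT at 9.00 and EBP at 8.91 in animal 3, RPL22 at 9.28 and DUSP5 at 9.00 in animal 4, JUND at 11.0 in animal 1, and APOA1 at 13.9 and PROC at 8.12 in animal 5. On chow these were ZFP36 at 9.70 and SLCO1B3 at 7.85 in animal 1, ALAS1 at 7.84 in animal 2, KYNU at 8.92 in animal 3, PROC at 8.24, HBA2 at 9.55 and RMC1 at 9.68 in animal 5, and APOM at 11.8 and HSD17B7 at 11.2 in animal 6. PROC, the anticoagulant protein C, stood out in animal 5 on both diets. All values are log2 signals.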

How the results depend on the processing

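The 6 DEG kept their sign under every alternative run. Each was lower in every animal, so fits on fewer animals could not turn the sign. Fits that changed only the block or the test kept the same estimate. In up to 19 alternatives GADD45B was called in 16, JUN and MYC in 15, GADD45A in 8, CTH in 7 and GDF15 in 6. In place of 6 DEG there were 0 with no replicate block, 0 with an ordinary paired test (339 higher and 267 lower at an unadjusted p under 0.05), 3 after median scaling and 1 in females only. Males only gave 3 higher and 3 lower. Leaving out each animal in turn gave 3 to 7 DEG, of which 0 to 1 were higher (CUX2, without animal 6, named after its value was seen) and 3 to 7 lower, the fewest without animal 2 or animal 4. MYC, JUN and GADD45B were called in each of these fits. With the animal as a random block there were 5 DEG, of which 3 (GADD45B, GDF15 and JUN) were among the 6, with STS and ZFP36 added and MYC, GADD45A and CTH lost. MYC did not pass there (adjusted p = 0.0568), with no replicate block (0.840), with the ordinary paired test (0.280) or in females only (0.0559). JUN did not pass with no replicate block (-1.03, adjusted p = 0.250), with the ordinary paired test (-1.03, adjusted p = 0.400), in females only (-0.94, adjusted p = 0.137) or in males only (-1.12, adjusted p = 0.0667), and HBB passed in males only (2.24). The CON against MUN difference had 0 calls in limma with all 24 liver arrays (291 genes at an unadjusted p under 0.05). Among genes that were not called, the sign turned in females only for FDPS (0.018), ACACB (0.012), PHKB (0.029), NR4A2 (0.29), IER5 (-0.038), COL3A1 (-0.052) and ALB (-0.033), and in males only for TM7SF2 (0.054), MCL1 (0.036) and FGB (0.18), and with an animal left out for FDPS (-0.26 to 0.015), LSS (-0.24 to 0.045), MCL1 (-0.057 to 0.035) and FGB (-0.17 to 0.0056). Median changes over the lists stayed between -0.34 and -0.20 for cholesterol biosynthesis, -0.41 and -0.21 for immediate early genes, and -0.47 and -0.28 for stress genes, in fits partly chosen after seeing the data. The causes of these differences were not tested. A normexp background correction moved, by more than 1.5 times, SQLE, GDF15, CTH, JUNB, IER3, FOS, KLF10, DHCR7, IL1RN (-1.76), F2 (-0.70), PPP1R3G (-0.93), DDIT3 (-0.49), CANX (0.42) and TMEM97 (0.33), among genes of the results above with a change of at least 0.2. The files gave no slide or scan, so that block was not run. SQLE, GDF15 and CTH lay near background on some HFCS arrays, which limits the size of change that could be read there.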
